A study of Danio rerio with 24 samples.

Results

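The redox and glutathione genes described here are 51 of the 18987 genes listed for the zebrafish ventricle. They were chosen by gene name alone, as the rows named for glutathione peroxidases, peroxiredoxins, superoxide dismutases, catalase, glutathione S-transferases, haem oxygenases, thioredoxin reductases, thioredoxin-like proteins, the enzymes that make and reduce glutathione, Nqo1, sulfiredoxin, and the Nrf factors with their inhibitor Keap1. RNA was taken from adult wild-type zebrafish whose ventricles had been frozen locally (cryoinjury, after which the fish ventricle regenerates) and which then either swam in a tunnel or rested, or from resting fish with a sham operation. The series holds 24 samples in 6 groups of 4, namely exercised and non-exercised cryoinjured fish at 7 and at 14 days post injury (dpi) and non-exercised sham-operated fish at 7 and 14 dpi. Each sample is a pool of 3 or 4 ventricles, so a sample does not show the spread between single fish. Atrium and bulbus arteriosus had been removed before the RNA was extracted.

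The value used for each gene is the authors' mean normalized count, that is, the mean over the samples they modelled of read counts scaled for library size. It is 1 value per gene. The samples behind it are not named, and the authors' methods describe their comparison on the 16 cryoinjured samples. Whether the sham-operated samples enter the mean is therefore unknown. The table holds 0 columns of per-sample values, so no value for a single sample, no SD and no depth per sample is given, and levels in exercised and non-exercised ventricles are not compared. The columns that hold the authors' own comparison of these groups were not used. Counts also grow with the length of a transcript. Transcript lengths were not used here, so a larger count is given as more reads and is not read as more molecules.

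Oxygen metabolism in the beating heart releases superoxide, which superoxide dismutases turn into hydrogen peroxide. Catalase breaks the peroxide down by itself. Glutathione peroxidases and peroxiredoxins remove it by drawing on glutathione and thioredoxin, which glutathione reductase and thioredoxin reductases return to their reduced form with NADPH. Glutathione S-transferases join glutathione to reactive compounds. The transcription factor Nrf2, held back by Keap1 until oxidants or electrophiles modify that protein, switches on many of these genes in vertebrates.

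All 51 genes had a mean count of at least 1, as did 18791 of the 18987 listed genes, so this sets the 51 little apart. Their values ran between 3.67 for sod3b and 3235 for sod2. Their median was 216 reads, against 79.6 reads for all listed genes. Mean counts above the median of all listed genes were found for 35 of the 51, and 23 of them (45.1%) were above 266 reads, the upper quartile of the table. At 1000 reads or more stood 10 of the genes (19.6%), against 7.45% of all listed genes, and below 10 reads stood 4 (7.84%), against 18.0% of all listed genes. These shares describe mean counts without scaling for length and were not tested, because the genes were picked by family and are not a sample of the table. Together the 51 genes held 0.260% of the summed mean count of the table.

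**Figure D1:**
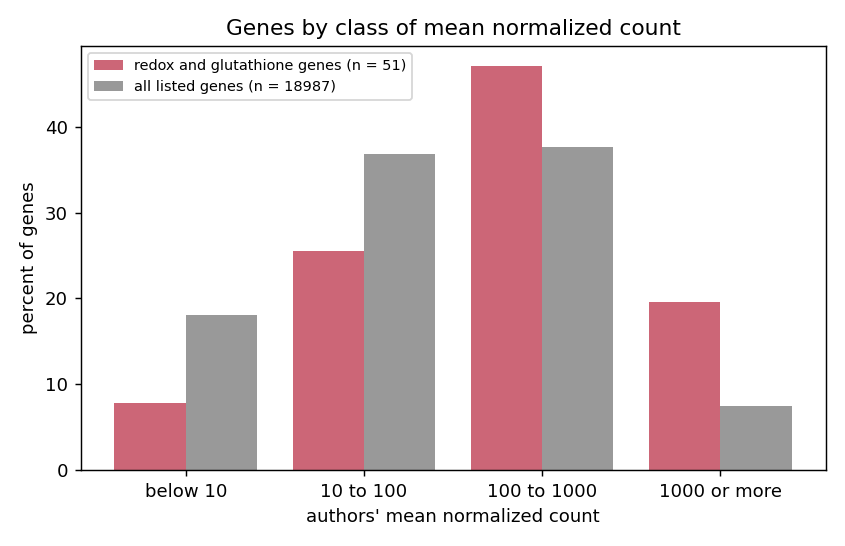
Percent of genes (y axis) in 4 classes of the authors' mean normalized count (x axis), for the 51 redox and glutathione genes on the left of each pair and all 18987 listed genes on the right. The classes of 100 reads or more hold a larger share of the redox genes, with 47.1% against 37.6% between 100 and 1000 reads and 19.6% against 7.45% above.

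The reads were concentrated in few genes. The 5 with the largest mean counts, sod2, gstm.1, gstr, gstp1 and prdx2, held 41.6% of the summed mean count of the 51, and the first 10 held 67.1%. By family, glutathione S-transferases held 37.9% with 15 genes and peroxiredoxins with sulfiredoxin 16.9% with 7 genes. Superoxide dismutases held 13.1% with 3 genes, and sod2 alone held 10.5%. The families for glutathione synthesis and reduction (2.53%), haem oxygenases and Nqo1 (2.04%) and thioredoxin-like proteins (1.72%) each held a small part.

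**Figure D2:**
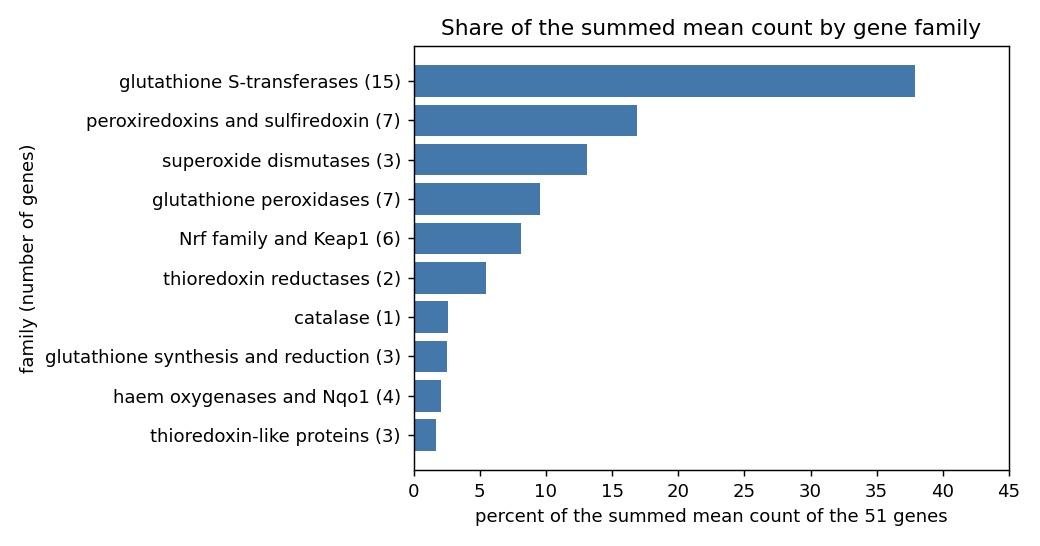
Share of the summed mean normalized count of the 51 genes (x axis, percent) held by each of 10 gene families, with the number of genes in parentheses. Glutathione S-transferases hold the longest bar with 37.9%, followed by peroxiredoxins with sulfiredoxin at 16.9% and superoxide dismutases at 13.1%.

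Among the superoxide dismutases, the mitochondrial manganese enzyme gene sod2 had a mean count of 3235, which is above that of 97.6% of all listed genes. The cytosolic copper-zinc enzyme gene sod1 had 800.1. The gene sod3b, for a secreted superoxide dismutase, had 3.67 and was the lowest of the 51. The count of sod2 was 4.04 times that of sod1, so that equal levels per length would need a transcript of sod2 longer than that of sod1 by this factor. For sod2 against sod3b the factor was 881. Catalase, which breaks down hydrogen peroxide in peroxisomes, had a mean count of 793.

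The 7 glutathione peroxidase genes divided into 2 with many reads, 1 between and 4 with few. The gene gpx4b had a mean count of 1689 and its paralog gpx4a had 214. Their mammalian counterpart Gpx4 reduces lipid peroxides within membranes and guards cells against ferroptosis. For the other pair, gpx1a had 976 reads and gpx1b had 8.16, a ratio of 120, whereas the ratio for gpx4b over gpx4a was 7.89. The low counts were those of gpx7 with 30.5 and gpx8 with 20.0, whose mammalian counterparts act in the endoplasmic reticulum, and of gpx3 with 8.93, which encodes the plasma form in mammals.

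In the peroxiredoxin family, prdx2 had a mean count of 1859 and prdx3 had 1572. The product of prdx2 is cytosolic and that of prdx3 is the peroxiredoxin of the mitochondrial matrix. The genes prdx6 and prdx5 followed with 799 and 708 reads, and prdx4, for the form of the endoplasmic reticulum, had 215. The gene listed as prdx1 had 36.6, so the count of prdx2 was 50.7 times larger. The naming of this pair is not uniform, since the table's gene ID for prdx2 is paired with the symbol PRDX1 in the list of gene names used here. The zebrafish reference names prdx1 and prdx2 as separate genes, and each matched a row of the same name. Sulfiredoxin, which restores overoxidised peroxiredoxins, had 16.4 reads for srxn1, the lowest count of this family.

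The thioredoxin reductase gene listed as txnrd1, whose ID the list of gene names pairs with TXNRD3, had a mean count of 1612. The gene listed as TXNRD2, the mitochondrial form in mammals, had 78.4, close to the median of the table, and the ratio between them was 20.5. The thioredoxin-like genes carry a related fold. Among them txnl1, whose product binds the proteasome in mammals, had 360 reads. The genes txnl4a and txnl4b, whose products belong to the splicing machinery, had 138 and 33.1.

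The first step of glutathione synthesis is carried out by glutamate-cysteine ligase, with a catalytic subunit encoded by gclc and a modifier subunit encoded by gclm. The last step belongs to glutathione synthetase, whose gene gss is not among the 51 and had 70.3 reads, below the median of all listed genes. Oxidised glutathione is reduced again by glutathione reductase, encoded by gsr. The genes gclc, gclm and gsr had similar mean counts. The count was 286 for gclc, 216 for gclm and 277 for gsr, and the ratio of gclc to gclm was 1.32. These 3 were above the median of all listed genes and each held under 1% of the reads of the 51, as the largest share was 0.928% for gclc.

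**Figure D3:**
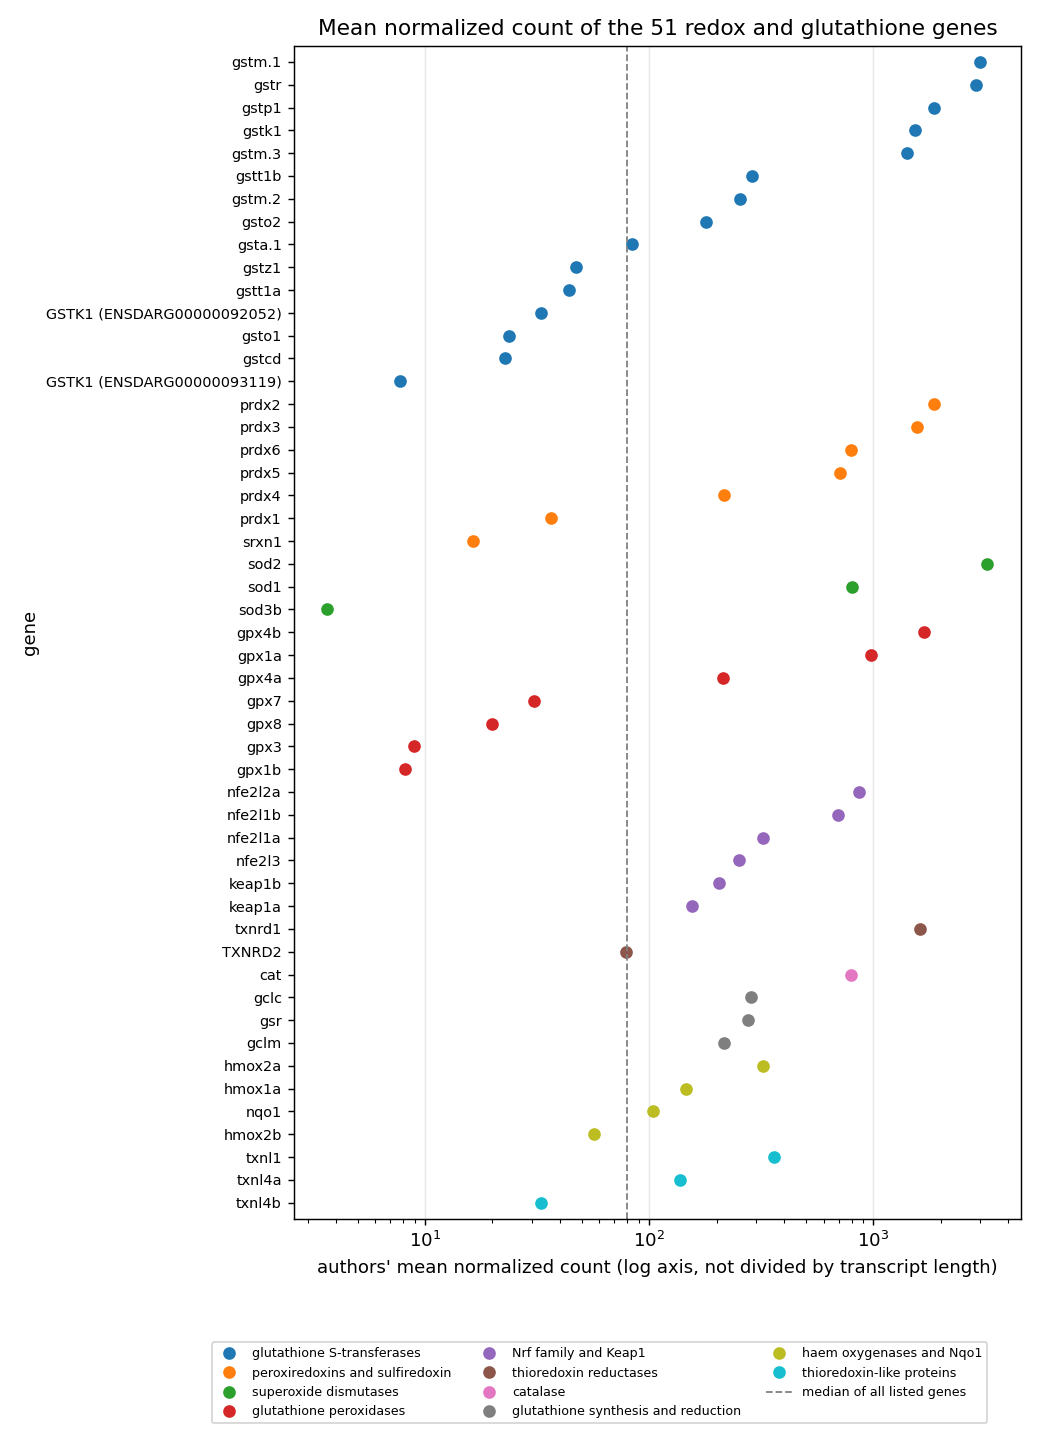
The authors' mean normalized count of each of the 51 genes (x axis, log scale, not divided by transcript length), with genes down the y axis grouped and coloured by family and the median of all listed genes as a dashed line. Counts run between 3.67 for sod3b and 3235 for sod2, and the 15 glutathione S-transferase genes run between 7.72 and 2980.2.

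The 15 glutathione S-transferase genes had mean counts between 7.72 and 2980.2. The mu class, of 3 genes, held 39.9% of their summed count. Its genes gstm.1, gstm.3 and gstm.2 had 2980.2, 1417 and 255 reads. The rho class gene gstr, of a class known in fish, had 2871, or 24.6% of the transferase reads, and the pi class gene gstp1 had 1866. The kappa class gene gstk1, whose mammalian counterpart is found in mitochondria and peroxisomes, had 1539.

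The other transferase genes had fewer reads. In the theta class, gstt1b had 287 and gstt1a had 44.0. In the omega class, gsto2 had 179 and gsto1 had 23.7. The ratios within these pairs, 6.52 and 7.55, were near that of gpx4b over gpx4a. The alpha class gene gsta.1 had 84.2 reads and was close to the median of the table. The gene gstz1, which acts in tyrosine breakdown, had 47.1. The gene gstcd, counted here by its name and set apart as a C-terminal domain class, had 22.8. Apart from gstk1 there were 2 rows named GSTK1, with 32.9 reads (ENSDARG00000092052) and 7.72 reads (ENSDARG00000093119). The list of gene names calls the first gstk4 and the second si:dkey-40m6.14.

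Several transferase genes stand beside each other in the zebrafish reference assembly GRCz12tu, with 0 protein-coding genes between them. This holds for gstm.1 and gstm.2, for gstm.2 and gstm.3, for gsto1 and gsto2, for gstk1 and gstk4, and for gstp1.1 and gstp1.2. The row listed as gstp1 has an ID that is paired with gstp1.2, and no row was matched to gstp1.1. The list of gene names pairs the IDs of all gstm rows with the same symbol, GSTM3. How reads that fit more than 1 such copy were assigned is not given in the sources used here, so the counts within the mu class, that of gstp1, and those of other close paralogs are uncertain.

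The Nrf factors and Keap1 had mean counts between 156 and 862 reads, and all 6 genes were above the median of all listed genes. The gene nfe2l2a, a zebrafish gene for Nrf2, had a mean count of 862, above that of 91.5% of all listed genes. The Nrf1 genes nfe2l1b and nfe2l1a, whose mammalian counterpart controls proteasome genes, had 699 and 322, and nfe2l3 had 253. The inhibitor genes keap1b and keap1a had 204 and 156 reads, a ratio of 1.31. Among the 51 genes, that ratio was the smallest of the pairs of paralogs named with the letters a and b, the others being between 2.17 for nfe2l1b over nfe2l1a and 120 for gpx1a over gpx1b.

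Among known targets of Nrf2, hmox1a, for the inducible haem oxygenase, had a mean count of 146 and nqo1, for a quinone reductase, had 104. The constitutive haem oxygenase genes hmox2a and hmox2b had 321 and 56.7. Haem oxygenases open the haem ring and release iron, carbon monoxide and biliverdin. With srxn1 at 16.4 reads and gclm at 216, the counts of the targets named here were spread widely. Another, gstp1, had 1866 and was above these. They are examples, since the genes described here were not sorted into targets and other genes.

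Genes that work beside the 51 were taken from a list of 73 names, of which 55 had a row of exactly that name. Here and for the cell type markers below, a gene listed under another name or spelling was not searched for. By mistake the list holds opla, which matched no gene, and gfpt1, a gene of hexosamine synthesis that had a row. Thioredoxin itself had 523 reads for txn and 514 for the mitochondrial txn2, and txnipa, for a protein that binds and inhibits thioredoxin, had 7424. The glutaredoxin gene glrx5, for iron-sulfur cluster assembly, had 1352. Among the genes for NADPH supply, nnt, the transhydrogenase of the inner mitochondrial membrane, had 11673, and pgd, a gene of the pentose phosphate pathway, had 453.

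The Keap1 partner genes cul3a and cul3b had 525 and 385 reads, and rbx1 had 341. The competing repressor genes bach1a and bach1b had 171 and 182. The small Maf partners of Nrf2 had 220 reads for maff, 97.5 for mafk and 17.1 for mafgb. On the side of oxidant production, 5 of 10 listed NADPH oxidase and xanthine dehydrogenase names had a row of exactly that name. The phagocyte oxidase genes cybb, cyba and ncf1 had 173, 161 and 174. For iron storage, fth1a had 14455 and fth1b 335.

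The samples are whole ventricles, so a count mixes the cell types present, and few cells of a type with much RNA each cannot be told apart from many cells with little. Genes listed as ventricular cardiomyocyte markers were abundant, with 7 of 8 matched by name and a range between 2389 for nppb and 163295 for myl7. Their expression in the atrium was not examined, so they are not used to tell ventricle from atrium. Red cell markers were also abundant, with 4 of 5 listed between 3994 for cahz and 25133 for hbaa1. Fibroblast and scar markers, 4 of 4, ranged between 1882 and 12777, and endothelial markers, 4 of 4, between 222 and 3550. Epicardial markers, 4 of 4, ranged between 112 and 1129. Of the genes listed as liver markers, fabp10a had 5.09 reads, apoa2 had 5.62 and tfa had 3333. Of those listed for skeletal muscle, myhz2 had 97.2, mylpfa had 161 and ckma had 26718. The cell types behind the reads of tfa and ckma, each far above the others of its list, were not tested. Macrophage markers, 4 of 4, ranged between 166 and 465 and neutrophil markers, 4 of 4, between 13.4 and 43.2. Of the genes listed as atrial markers, myh6 had 3281 reads and nppa had 25667. Of those listed for the bulbus arteriosus, elnb had 335 and acta2 had 422. The paper treats nppa as a marker of cardiac stress and as an injury-response gene of the cryoinjured heart. Whether any atrium or bulbus was left after their removal was not tested. The part of each cell type in the counts of the redox genes was not tested.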

How the data were processed

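RNA of pooled ventricles was sequenced by the authors on an Illumina instrument after poly-A capture. For the authors' processing, the submitters' notes name TopHat2 2.1.0, HTSeq 0.6.0, DESeq2 and the genome build GRCz10. The signal value deposited by the authors is the mean normalized count per gene. The authors' methods describe the RNA-seq comparison on the 16 cryoinjured samples, and the table itself does not name the samples behind the mean. How reads shared between genes were treated is not given in the sources used here. The table also holds the authors' fold changes, standard errors, statistics and p-values for exercise, which were not used, and 0 columns of per-sample values. The planned tests on counts per sample could therefore not be run, and precision per sample is unknown.

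Genes were matched by name and grouped into 10 families. Percentiles are the percent of the 18987 listed genes with a lower mean count, ties at mid-rank. Gene IDs were paired with symbols for 50 of the 51 genes, and the order of protein-coding genes was taken from RefSeq's GRCz12tu. That reference names 59 genes of these families. For 9 of them (gpx2, gpx9, gsta.2, gstk2, gstp1.1, gstt2, hmox1b, nfe2l2b and sod3a) no row among the 51 matched by symbol, paired ID or synonym. Every one of the 51 genes is named. Sequences, coding lengths and promoters were not used. The members and lists were chosen with earlier results of these data known. Steps were tested on simulated data. Python 3.11.15, pandas 2.3.3, numpy 2.4.6 and matplotlib 3.10.9 were used.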

Additional observations from a re-analysis of the deposited data

How the results depend on the processing

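Neither summary value carries a replicate error, so any change by over 0.5% of the value was counted as a move. The share of the summed mean count held by the 51 genes was 0.336% with the 10 genes of highest mean count left out of the total, and 0.295% with the 13 mitochondrially encoded genes left out, against 0.260% in the full table. Those 10 genes held 22.5% of all reads in the table and the mitochondrial genes 11.9%. Without the 2 rows that share the name GSTK1 the share was also 0.260%. The median percentile of the genes was 71.2 among all listed genes, 70.9 among the 18791 genes with a mean count of at least 1, and 68.6 among the 15560 genes with at least 10, which 47 of the 51 passed.

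Scaling by coding or transcript length, the motif search in promoters and the protein comparisons were not run. No paired analysis was possible because the table holds 1 mean per gene and no value per sample. For the same reason the other tools, filters and left-out replicates were not run. Mean counts below 10, as for gpx1b, gpx3, sod3b and 1 GSTK1 row, rest on few reads per sample, and ratios that involve them are uncertain by an amount that cannot be given.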

Other observations

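Other redox genes outside the 51 had counts that were not yet described. The methionine sulfoxide reductase genes, whose products repair oxidised methionine, had mean counts of 1636 for msrb3, 666 for msrb1a, 106 for msra and 71.2 for msrb1b. The sestrin genes sesn1, sesn3 and sesn2 had 1656, 643 and 99.8. Among the membrane-bound transferases, mgst1.2 had 382, mgst1.1 had 61.8 and mgst2 had 30.3. The glutathione-degrading enzyme gene chac1 had 4958, above 98.5% of all listed genes. Listed with it under glutathione synthesis, import and turnover, oplah had 92.2 and ggt1a had 2.99. The genes slc3a2b and slc3a2a, for a subunit shared by several amino acid transporters, had 2200.2 and 264. The cystine transporter gene slc7a11 was on the same list of names and had no row of exactly that name, and other names for it were not searched. The paralogs txnipa and txnipb had 7424 and 1.79 reads.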
